A study of Mus musculus with 6 samples.

Results

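Autophagy genes were examined in the messenger RNA of mouse pancreatic islets. They were taken from the deposited gene table as the protein-coding entries named Atg with a number, Ulk1 to Ulk4, and the Map1lc3, Gabarap and Wipi families, together with Becn1, Pik3c3, Pik3r4, Sqstm1, Nbr1, Optn, Tfeb, Tfe3, Rb1cc1 and Uvrag. This gave 40 genes of the 54532 in the table. The control group was Wtap flox/flox, whose Wtap gene carries recombination sites. The other group was labelled Wtap-βKO, in which Wtap is deleted in the insulin-producing β cells, as the label reads. Each group had 3 samples, each of them a pool of islets from 3 mice aged 7 weeks. The labels do not name the promoter that drives the deletion, and whole islets also hold α, δ, PP, endothelial and other cells.

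Autophagy is the route by which a cell wraps part of its cytoplasm in a double membrane, the autophagosome, and delivers it to the lysosome for breakdown. A kinase complex around ULK1 starts the process, a lipid kinase complex around BECN1 marks the forming membrane with the lipid PI3P, and ubiquitin-like conjugation attaches proteins of the ATG8 family (LC3 and GABARAP) to it. Cargo receptors such as SQSTM1, also called p62, tie ubiquitinated material to ATG8. In β cells autophagy is known for clearing damaged mitochondria and protein aggregates. WTAP is a subunit of the complex that writes N6-methyladenosine on RNA.

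The 6 libraries held between 16353297 and 18682745 reads, recovered from the deposited values. Replicate 2 labelled Wtap-βKO stood apart from the other 2 of its group (chi-square per degree of freedom over genes 18.1 and 17.2, against 5.41 between those 2 and 5.38 to 6.61 among controls). Wtap was not called lower in the second group, called knockout-labelled from here on, at 11.2 ± 0.545 FPKM (fragments per kilobase of gene, scaled to library size) in controls and 11.8 ± 0.552 in the second group (SD, n = 3 each; log2 difference 0.07, adjusted p = 0.475 by limma). The deleted part of the gene is not named in the labels. Directions given here follow the labels. Both insulin genes together took 28.9% to 32.6% of total FPKM in controls and 18.8% to 19.2% in the knockout-labelled libraries. By the test described next, 8 of 10 β-cell markers were lower (summed FPKM 135142 to 155400 in controls and 81971 to 92558 in the other group) and 5 of 7 α-cell markers were higher. Of the tested markers of other cells, 2 of 4 δ- and PP-cell, 1 of 7 acinar, 1 of 5 ductal, 1 of 8 macrophage, 2 of 8 endothelial and 5 of 7 mesenchymal genes were higher and none of these was lower. Summed FPKM of the mesenchymal list was 45.4 to 57.1 in controls and 68.5 to 79.6 in the other group, that of the macrophage list 100.4 to 110.4 and 119 to 133, and that of the acinar list 115 to 196 and 187 to 255. The α-cell list summed to 21263 to 25473 in controls and 33828 to 44689 in the other group, the δ- and PP-cell list to 12552 to 14079 and 15032 to 27860, the ductal list to 42.4 to 48.6 and 56.6 to 85.4, and the endothelial list to 169 to 205 and 203 to 230. No marker of any list was at 0 in a library. Autophagy runs in all of these cells, so fewer cells of a type and less RNA per cell cannot be told apart, and the part of these markers in the results was not tested.

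The transcripts of 5 autophagy genes fell in the knockout-labelled libraries and none rose by the test. The genes that fell were the cargo receptors Sqstm1 (1.42-fold) and Optn (1.72-fold), the initiation genes Atg13 (1.36-fold) and Rb1cc1 (1.21-fold), and the PI3P-binding Wipi1 (1.33-fold). Most of the core machinery, including Ulk1, Becn1, Atg5, Atg7, Atg16l1 and the LC3 genes, did not pass the test. Genes with a mean of at least 0.5 FPKM over the 6 samples were tested with limma on log2(FPKM + 1), two-sided, and p-values were adjusted by Benjamini-Hochberg across the 15927 genes in the fit, with calls at an adjusted p under 0.05. Of the 40 autophagy genes 38 were tested. The 5 that fell are 13.2% of them, against 11.3% of all tested genes called lower, so the count of calls lies near the background. No autophagy gene was called higher, where 8.77% of all tested genes were. Over all genes 1397 were called higher and 1798 lower, and 2334 and 1094 under total-read scaling. At an unadjusted p under 0.05 limma had 1 higher and 14 lower, where 16.3% of all tested genes were higher and 18.6% lower at that level. Limma voom on the recovered reads called 0 higher and 10 lower, against 11.6% of all genes called higher and 14.1% lower by voom. Without knockout-labelled replicate 2 limma called 0 higher and 6 lower, against 1379 higher and 1834 lower of all 15927 genes. Gabarap and Atg9a were then called and Rb1cc1 was not.

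The differences were small and mostly below 0. Of the 38 tested genes 32 had a log2 difference below 0, where 50.9% of all tested genes did. Under total-read scaling 24 did, where 37.3% of all tested genes did. At a mean FPKM of at least 5, 26 of 31 autophagy genes (83.9%) were below 0, against 57.6% of all genes. The median log2 difference (Wtap-βKO minus control) was -0.14 over the autophagy genes and -0.01 over all tested genes, and single genes ranged from -0.63 to 0.27. The 2 groups of libraries did not overlap for 14 autophagy genes that were lower (36.8%, against 22.1% of all tested genes) and for 2 that were higher (5.26%, against 19.1%), Atg101 and Tfeb.

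**Figure D1:**
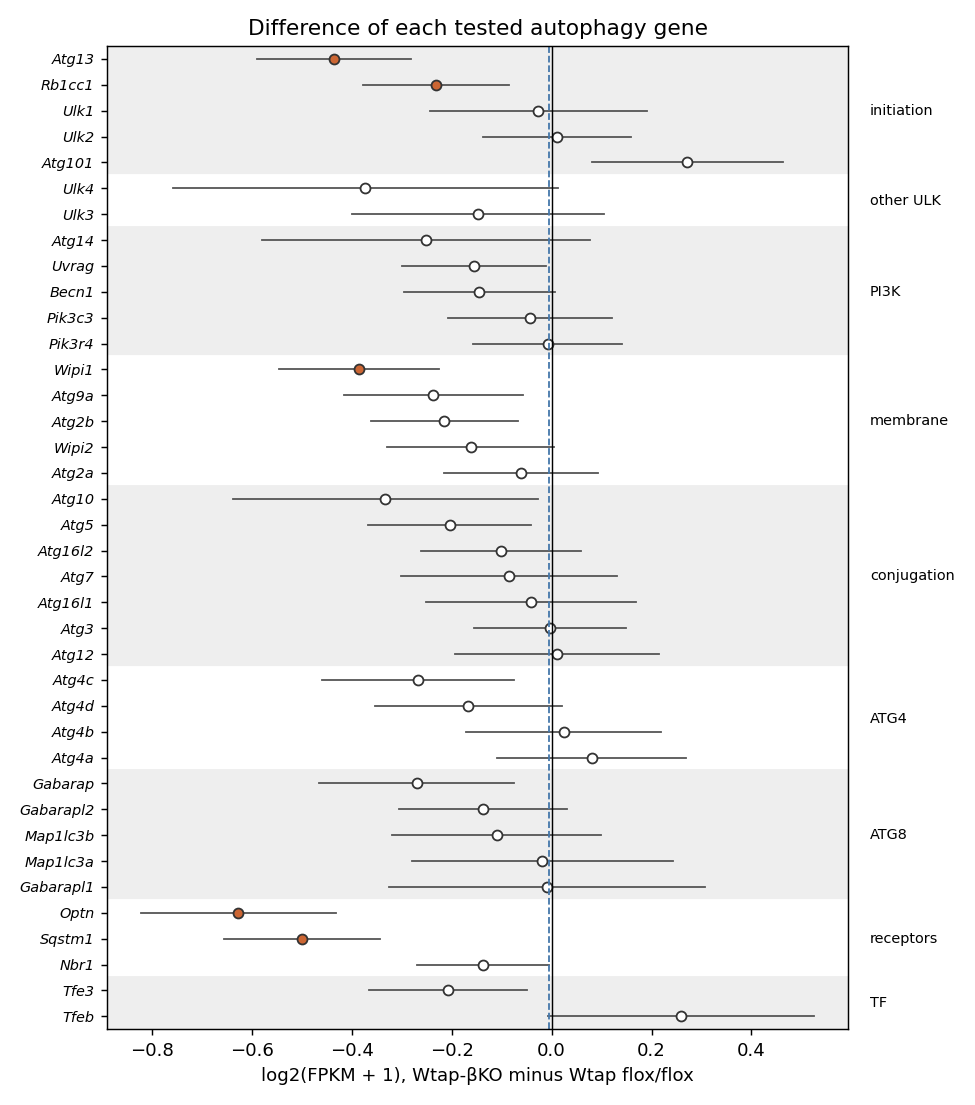
Log2 difference of each of the 38 tested autophagy genes, Wtap-βKO minus Wtap flox/flox on the log2(FPKM + 1) scale (x axis), with its 95% confidence interval from limma (bars), grouped by role from top to bottom; filled points passed the test and the dashed line is the median of all tested genes. The 5 filled points are Atg13, Rb1cc1, Wipi1, Optn and Sqstm1, and the intervals of 23 genes span 0.

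Sqstm1, Gabarap and Gabarapl1 were the 3 genes at or above a mean of 50 FPKM, 14 genes lay between 10 and 50, another 14 between 5 and 10, and 7 tested genes under 5. The median coefficient of variation within a group over the 38 genes was 6.96% in controls and 6.03% in the knockout-labelled libraries. The recovered reads per library ran from 100 (Ulk4) to 8048 (Sqstm1). Replicate 2 of the knockout-labelled group was the highest of its group for 18 of the 38 genes and the lowest for 6.

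**Figure D2:**
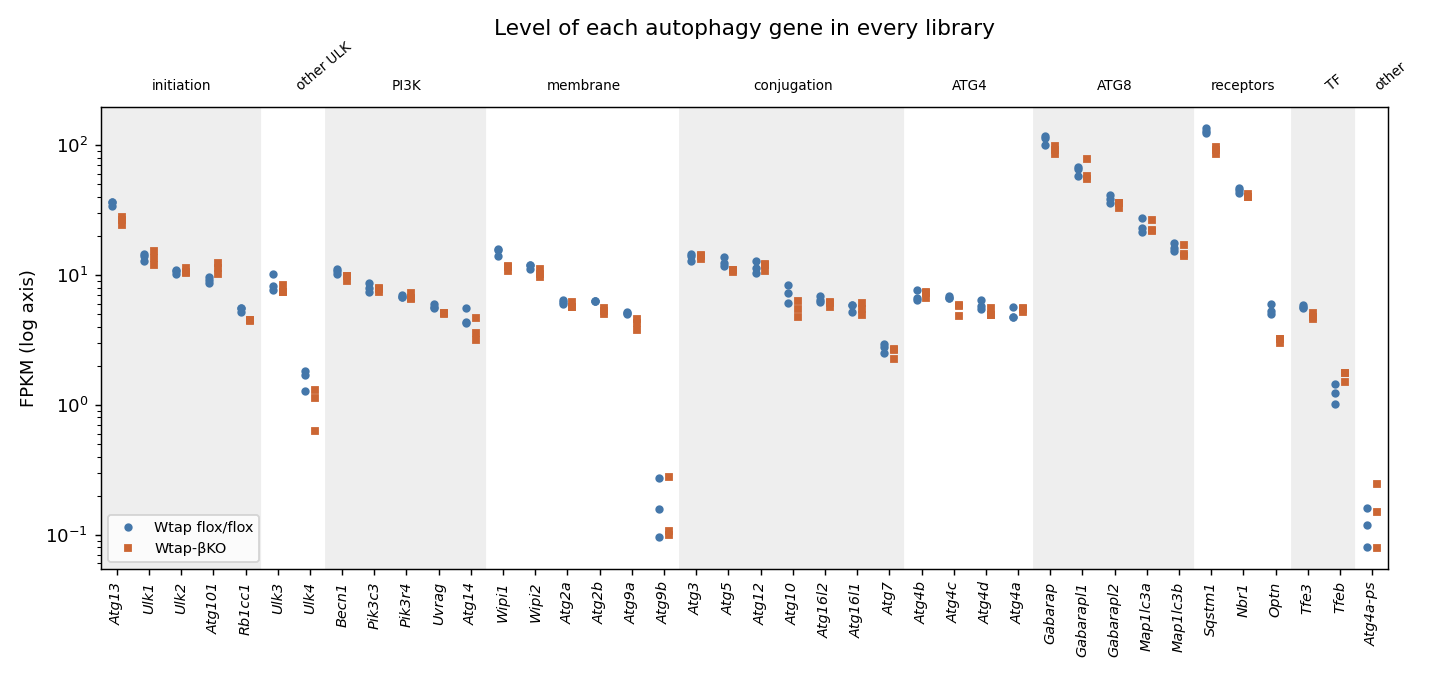
FPKM on a log axis of the 40 autophagy genes in each library (circles, Wtap flox/flox; squares, Wtap-βKO), grouped by role and ordered by level within a role. Gene-to-gene differences in level exceed the group differences, and Atg9b and Atg4a-ps lie below 0.3 FPKM in every library.

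Among cargo receptors, the proteins that carry ubiquitinated material to the autophagosome, Sqstm1 had the highest mean level of the autophagy genes in controls, and Gabarap and Sqstm1 lay close together in the knockout-labelled libraries. Sqstm1 was at 123, 128 and 135 FPKM in control replicates 1 to 3 and at 85.0, 96.0 and 91.2 FPKM in knockout-labelled replicates 1 to 3. Every knockout-labelled library was below every control. The mean fell from 129 ± 5.81 to 90.7 ± 5.51 FPKM (SD, n = 3 each), a log2 difference of -0.50 (SE 0.07, adjusted p = 0.00376 by limma), on 5277 to 8048 reads per library. Sqstm1 spans bases 50199366 to 50210827 of chromosome 11, minus strand (GRCm38, deposited coordinates), where the protein-coding gene Mrnip overlaps it on the other strand.

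Optn encodes optineurin, a receptor for damaged mitochondria and invading bacteria. Optn was at 6.02, 5.25 and 4.99 FPKM in control replicates 1 to 3 and at 3.01, 3.20 and 3.23 FPKM in knockout-labelled replicates 1 to 3. The lowest control was 4.99 and the highest of the other group 3.23, so the groups lay apart. The log2 difference of -0.63 (SE 0.08, adjusted p = 0.00366 by limma) was the largest fall among the autophagy genes. Optn spans bases 5020642 to 5064051 of chromosome 2, minus strand, and overlaps the antisense gene 4930551O13Rik. Nbr1, a receptor for protein aggregates and peroxisomes, was at 44.7 ± 1.85 and 40.6 ± 1.46 FPKM and missed the threshold (adjusted p = 0.132 by limma), although its groups did not overlap. The summed level of the 3 receptors was 174, 179 and 183 FPKM in controls and 130, 139 and 134 FPKM in the knockout-labelled libraries (exact permutation test, two-sided, p = 0.1, the smallest that 3 against 3 samples allow, and 0.15 adjusted over 9 roles). Sqstm1 made up 70.0% of it.

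The initiation complex holds the kinases ULK1 or ULK2 with the scaffolds ATG13, ATG101 and FIP200, the last encoded by Rb1cc1. Atg13 was at 34.3, 36.2 and 36.5 FPKM in control replicates 1 to 3 and at 26.3, 27.8 and 24.2 FPKM in knockout-labelled replicates 1 to 3, with no overlap between the groups. It had the highest level of the complex and fell by 0.44 on the log2 scale (SE 0.07, adjusted p = 0.00580 by limma). Atg13 spans bases 91674618 to 91710576 of chromosome 2, minus strand, with no other annotated gene across it.

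Rb1cc1 was at 5.53, 5.2 and 5.53 FPKM in control replicates 1 to 3 and at 4.48, 4.51 and 4.40 FPKM in knockout-labelled replicates 1 to 3. All 3 knockout-labelled libraries lay below the lowest control. The log2 difference was -0.23 (SE 0.06, adjusted p = 0.0406 by limma), and the call was lost in 10 of 17 alternatives, among them leaving out any 1 of the 6 libraries (adjusted p 0.0561 to 0.127) and total-read scaling (0.180). Rb1cc1 spans bases 6206197 to 6276648 of chromosome 1, plus strand, and overlaps the antisense gene 4732440D04Rik.

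Atg101, which steadies ATG13 in the complex, stood the other way from Atg13 and Rb1cc1. It was at 9.08, 9.71 and 8.73 FPKM in controls and at 11.4, 12.3 and 10.2 FPKM in the knockout-labelled libraries. Every library of the second group was above every control, and the log2 difference of 0.27 (SE 0.08) missed the threshold (adjusted p = 0.0559 by limma). It was called higher in 7 of 18 alternatives, with adjusted p from 0.0220 to 0.157. The kinase gene Ulk1 was at 14.5, 14.1 and 12.9 FPKM in controls and at 13.6, 15.2 and 12 in the other group, with overlap, and its log2 difference was -0.03 (95% interval -0.24 to 0.19), above 0 under quantile normalization, without the 50 highest genes and under total-read scaling. Ulk2 differed by 0.01 (95% interval -0.14 to 0.16). Of the ULK relatives outside the complex, Ulk3 was at 8.70 ± 1.31 and 7.72 ± 0.566 FPKM and Ulk4, a pseudokinase gene, at 1.59 ± 0.285 and 1.02 ± 0.350, and neither passed the test. Ulk4 (log2 difference -0.37) came to -0.72 by voom (adjusted p = 0.0361), and it overlaps Ctnnb1 on the other strand.

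The lipid kinase complexes pair the catalytic subunit gene Pik3c3 and the regulatory Pik3r4 with Becn1 and either Atg14, for autophagosome formation, or Uvrag, for endosomes and maturation. None of these 5 genes passed the test. Becn1 was at 10.2, 10.8 and 11.1 FPKM in controls and at 9.86, 9.86 and 9 FPKM in the knockout-labelled libraries, which did not overlap (log2 difference -0.14, 95% interval -0.30 to 0.01, adjusted p = 0.157 by limma). Uvrag did not overlap either, at 5.74 ± 0.213 and 5.05 ± 0.0397 FPKM. Atg14 varied most within the groups, at 4.70 ± 0.716 and 3.80 ± 0.763. Pik3c3 was at 7.99 ± 0.581 and 7.72 ± 0.254 and Pik3r4 at 6.83 ± 0.107 and 6.79 ± 0.391, with 95% intervals of the log2 difference from -0.21 to 0.12 and from -0.16 to 0.14.

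ATG9 vesicles and the lipid-transfer proteins ATG2A and ATG2B supply membrane, and the WIPI proteins read PI3P and recruit the conjugation machinery. Wipi1 was at 15.5, 14 and 16.0 FPKM in control replicates 1 to 3 and at 11.6, 10.8 and 11.7 FPKM in knockout-labelled replicates 1 to 3. The groups lay apart, and Wipi1 fell by 0.39 on the log2 scale (SE 0.07, adjusted p = 0.010 by limma). It spans bases 109573331 to 109611967 of chromosome 11, minus strand. Its relative Wipi2, which binds ATG16L1, was at 11.7 ± 0.455 and 10.3 ± 0.811 FPKM with overlapping libraries (adjusted p = 0.155 by limma).

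Atg2b and Atg9a were lower in every knockout-labelled library than in any control and missed the threshold. Atg2b was at 6.28, 6.28 and 6.30 FPKM in controls and at 5.53, 5.32 and 5.00 in the other group (adjusted p = 0.0528 by limma, 0.0176 by voom). Atg9a was at 5.11 ± 0.0658 and 4.19 ± 0.383 FPKM (adjusted p = 0.0702 by limma, 0.0467 by voom). Atg2a was at 6.16 ± 0.200 and 5.87 ± 0.308, and its log2 difference of -0.06 turned to 0.04 under total-read scaling. Atg9b had 6 to 19 reads per library and was not tested. The summed level of the 6 genes was 43.6 to 45.8 FPKM in controls and 36.1 to 38.2 in the knockout-labelled libraries (exact permutation test, p = 0.1, 0.15 adjusted over 9 roles).

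**Figure D3:**
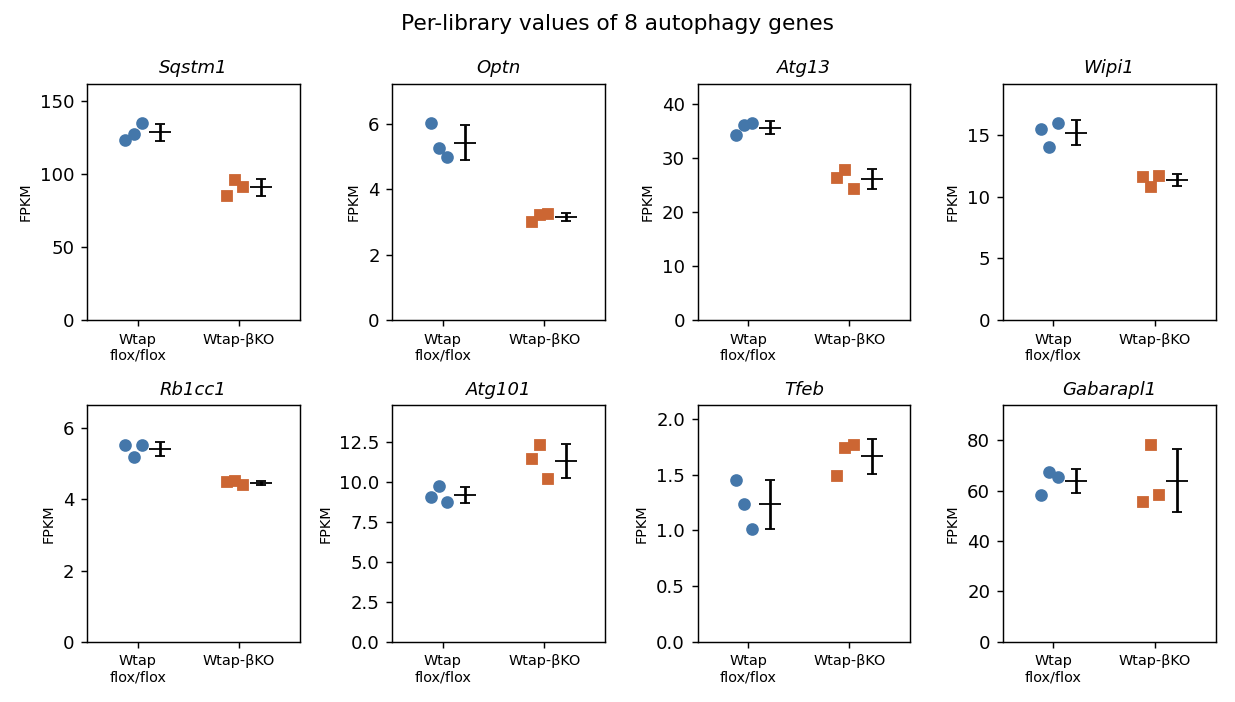
FPKM of 8 autophagy genes in each library (points; replicates 1 to 3 from left to right) with the mean and SD of each group (bars), on axes that start at 0. Sqstm1, Optn, Atg13, Wipi1 and Rb1cc1 are lower in all 3 knockout-labelled libraries, Atg101 and Tfeb are higher in all 3, and Gabarapl1 overlaps, with replicate 2 of the knockout-labelled group at 78.1 FPKM.

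In the conjugation system ATG7 is the activating enzyme, ATG3 and ATG10 pass ATG8 and ATG12 on, and the ATG12, ATG5 and ATG16L1 complex sets the site of lipidation. None of its 7 genes passed the test. Atg5 came nearest, at 12.4, 11.7 and 13.7 FPKM in controls and 10.5, 10.8 and 11 FPKM in the knockout-labelled libraries, which did not overlap (adjusted p = 0.0799 by limma). Atg7 was at 2.49, 2.81 and 2.96 FPKM in controls and at 2.27, 2.65 and 2.70 in the other group, and Atg16l1 at 5.86, 5.90 and 5.16 FPKM and at 4.92, 5.43 and 6.04. Both of these pairs of groups overlapped, with 95% intervals of the log2 difference from -0.30 to 0.13 for Atg7 and from -0.25 to 0.17 for Atg16l1. Atg10 was at 7.23 ± 1.16 and 5.52 ± 0.765 FPKM, with overlap, and Atg16l2 at 6.49 ± 0.342 and 5.98 ± 0.280. Atg3 was at 13.8 ± 0.867 and 13.8 ± 0.465 and Atg12 at 11.5 ± 1.23 and 11.6 ± 0.693.

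The ATG4 proteases trim ATG8 precursors and release ATG8 from membranes, and their 4 genes did not pass the test. Atg4c was at 6.69, 6.65 and 6.93 FPKM in controls and at 4.80, 5.73 and 5.85 in the knockout-labelled libraries, without overlap (adjusted p = 0.0600 by limma). Atg4d was at 5.87 ± 0.444 and 5.12 ± 0.358 FPKM. Atg4a was at 5.07 ± 0.495 and 5.4 ± 0.222 and Atg4b, the main processing enzyme, at 6.95 ± 0.677 and 7.07 ± 0.410. The entry Atg4a-ps, which its name marks as a pseudogene and the table lists as protein-coding, had 3 to 9 reads per library and was not tested.

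The ATG8 genes were among the most abundant of the pathway, in the order Gabarap, Gabarapl1, Gabarapl2, Map1lc3a and Map1lc3b by FPKM, which is per length, in both groups. Neighbours in that order did not overlap in either group. Gabarap was at 101, 113 and 118 FPKM in controls and at 84.9, 98.5 and 91.4 in the knockout-labelled libraries. The groups did not overlap, and the log2 difference of -0.27 missed the threshold (SE 0.08, adjusted p = 0.0605 by limma). It passed in 5 of 18 alternatives, among them voom (adjusted p = 0.0212), the replicate block (0.0412) and without replicate 2 of the knockout-labelled group (0.0399).

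Gabarapl1 was at 58.2, 67.5 and 65.3 FPKM in controls and at 55.3, 78.1 and 58.3 in the knockout-labelled libraries. Replicate 2 of the second group stood above every control and the other 2 at or near the lowest control. The log2 difference was -0.01, with a 95% interval from -0.33 to 0.31, and it was above 0 under quantile normalization, without the 50 highest genes and under total-read scaling. The LC3 genes overlapped between the groups as well. Map1lc3a was at 27.4, 21.3 and 23.2 FPKM in controls and at 21.8, 26.5 and 22.4 FPKM in the other group. Map1lc3b, the usual marker of autophagosomes at the protein level, was at 15.3, 17.7 and 16.1 FPKM and at 14.5, 16.9 and 13.9 FPKM. Their 95% intervals of the log2 difference ran from -0.28 to 0.24 for Map1lc3a and from -0.32 to 0.10 for Map1lc3b. Gabarapl2 was at 38.6 ± 2.83 and 35.0 ± 1.78 FPKM.

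Within the summed ATG8 transcripts Gabarap took 43.7% ± 1.12 in controls and 40.1% ± 1.42 in the knockout-labelled libraries, and Gabarapl1 25.1% ± 0.917 and 27.7% ± 2.43 (SD, n = 3 each). The Gabarapl1 share was 30.5% in knockout-labelled replicate 2. In replicates 1 and 3 it was 26.4% and 26.2%, against 24.5% to 26.2% in controls. The sum itself was 238, 258 and 264 FPKM in controls and 209, 256 and 222 in the other group, which overlapped (exact permutation test, p = 0.2, also 0.2 adjusted over 9 roles). Of the 9 roles, 6 had sums that were lower without overlap: the receptors, the initiation complex, the lipid kinase complexes, membrane supply, conjugation and the ATG4 proteases. None was higher without overlap. The highest knockout-labelled sum lay close to the lowest control sum for the lipid kinase complexes, at 34.7 and 34.9 FPKM. It did so for conjugation (57.1 and 57.6) and the ATG4 proteases (24.1 and 24.3) too. The sums were taken from FPKM as deposited and were not tested under other scalings. No background share of such sums was computed.

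TFEB and TFE3 are basic helix-loop-helix factors that switch on lysosome and autophagy genes when they enter the nucleus. Tfeb was at 1.45, 1.24 and 1.01 FPKM in controls and at 1.49, 1.74 and 1.77 FPKM in the knockout-labelled libraries, on 102 to 177 reads. The highest control stood just under the lowest of the other group, and the log2 difference of 0.26 (SE 0.11) missed the threshold (adjusted p = 0.153 by limma). Tfe3, the more abundant of the pair, was at 5.69, 5.54 and 5.89 FPKM in controls and at 4.71, 4.60 and 5.13 in the other group. It stood the other way without overlap (log2 difference -0.21, SE 0.07, adjusted p = 0.0717 by limma, 0.0328 by voom).

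The promoters of 4 genes that fell are shown because these genes passed the test in the same direction. Each sequence is the 250 bases before the RefSeq start on GRCm38.p6, read in the direction of the gene. Atg3, whose mean was 13.8 FPKM in both groups, is shown beside them because it holds the letters CACGTG, the core of the sites that TFEB and TFE3 bind. It was picked from the 4 autophagy genes with CACGTG named below and had the smallest log2 difference of them. The others were Atg5 (-0.20), Atg7 (-0.09) and Atg14 (-0.25). The sequences printed therefore give no comparison of genes with and without CACGTG. Capitals mark CACGTG and an adjoining T or A where the letters read TCACGTG or CACGTGA. The promoter table held no entry for Rb1cc1.
Sqstm1, chr11:50210821-50211070, minus strand: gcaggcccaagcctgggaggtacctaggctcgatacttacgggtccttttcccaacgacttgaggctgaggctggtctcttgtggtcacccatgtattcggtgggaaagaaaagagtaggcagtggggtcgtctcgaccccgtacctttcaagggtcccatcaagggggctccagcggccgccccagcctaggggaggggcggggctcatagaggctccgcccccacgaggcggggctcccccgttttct
Optn, chr2:5064118-5064367, minus strand: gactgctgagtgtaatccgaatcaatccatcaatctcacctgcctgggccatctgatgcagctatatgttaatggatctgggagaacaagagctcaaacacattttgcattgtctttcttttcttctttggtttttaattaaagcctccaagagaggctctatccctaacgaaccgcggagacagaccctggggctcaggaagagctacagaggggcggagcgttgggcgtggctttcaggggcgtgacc
Wipi1, chr11:109611390-109611639, minus strand: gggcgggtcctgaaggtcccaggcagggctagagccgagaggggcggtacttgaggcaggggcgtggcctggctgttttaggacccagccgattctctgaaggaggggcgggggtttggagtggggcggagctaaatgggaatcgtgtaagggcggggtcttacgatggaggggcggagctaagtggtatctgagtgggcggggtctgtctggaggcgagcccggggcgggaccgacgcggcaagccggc
Atg13, chr2:91710593-91710842, minus strand: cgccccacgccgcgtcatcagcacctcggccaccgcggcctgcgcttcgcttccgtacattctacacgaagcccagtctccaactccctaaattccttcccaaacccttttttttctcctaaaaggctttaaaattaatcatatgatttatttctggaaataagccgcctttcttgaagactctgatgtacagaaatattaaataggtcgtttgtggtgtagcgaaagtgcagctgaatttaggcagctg
Atg3, chr16:45158579-45158828, plus strand: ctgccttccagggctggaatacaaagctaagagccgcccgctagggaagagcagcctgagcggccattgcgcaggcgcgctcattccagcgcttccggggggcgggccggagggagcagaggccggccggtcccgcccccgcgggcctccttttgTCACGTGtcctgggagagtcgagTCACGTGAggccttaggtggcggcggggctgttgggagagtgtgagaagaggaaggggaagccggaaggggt
None of the 4 promoters of genes that fell held CACGTG, and Atg3 held it at 2 places, starting 94 and 71 bases before the start. In these 250 bases 6.02% of all promoters hold it, so 4 promoters are too few to show a lack of it. The RefSeq start of Wipi1 lies 578 bases inside the deposited gene. Of 39 promoters of 33 autophagy genes in the table (250 bases before to 50 after the start), 4 held CACGTG (10.3%, against 7.15% of all 32851 promoters), those of Atg3, Atg5, Atg7 and Atg14. The longer TCACGTG, in either direction, was in 3 (7.69%, against 3.77%), and the full palindromic CLEAR element in none (0.326% of all). The median GC content was 59.6% in these 39 promoters and 52.4% in all, and its part in the shares was not tested. Both longer forms contain CACGTG, so the counts are nested. In the 250 bases before the start alone, 3 of the 39 held CACGTG (against 6.02%) and 2 TCACGTG (against 3.13%). None of these genes was called. Since 13.2% of the tested autophagy genes were called, 4 genes are too few to show a lack of calls.

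Other genes of the pathway, outside the families above, were taken from 4 lists of which 60 genes were tested. Of these, 15 fell and 3 rose, which is 25% lower and 5% higher, against 11.3% and 8.77% of all tested genes. Among the protein-coding genes tested 12.5% were lower and 9.77% higher. At a mean FPKM of at least 5, where 55 genes of the lists were tested, 15 fell and 4 rose. In that fit 1571 of all 7830 genes were lower and 1026 higher. The median log2 difference was -0.12, against -0.01 over all tested genes. The same background applies to the counts of each list. At an unadjusted p under 0.05 by limma, 16.3% of all tested genes were higher and 18.6% lower. Without any 1 control or knockout-labelled replicate 1 or 3, the calls dropped to 7 to 10 lower and 2 to 3 higher. In those fits 1020 to 1218 of all 15927 genes were lower and 774 to 958 higher. Without knockout-labelled replicate 2, 17 were lower and 4 higher, against 1834 and 1379 of all genes. Under total-read scaling 9 were lower, against 1094 of all genes. Groups of libraries did not overlap for 27 genes that were lower (45%, against 22.1% of all tested genes) and 5 that were higher (8.33%, against 19.1%).

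Of 15 genes of nutrient and energy sensing, 5 fell and none rose (0 higher at an unadjusted p under 0.05, and 8 lower). AMPK, the kinase that senses low energy and activates ULK1, is built of a catalytic, a β and a γ subunit. The β subunit gene Prkab2 was at 7.45, 8.15 and 6.93 FPKM in controls and at 4.94, 3.78 and 4.03 FPKM in the knockout-labelled libraries, 1.77-fold lower (adjusted p = 0.00527 by limma). Prkab1, the other β subunit, was at 14.5, 15.2 and 12.7 FPKM in controls and at 9.64, 10.1 and 9.57 in the other group, 1.45-fold lower. The γ subunit gene Prkag2 was at 8.17, 9.70 and 8.23 FPKM and at 4.89, 6.20 and 4.78, 1.65-fold lower. All 3 lay without overlap between the groups. The rest that fell were Deptor, an inhibitor of mTOR (1.39-fold, lost without control replicate 2, adjusted p = 0.0515), and the catalytic Prkaa1 (1.15-fold, lost in 11 of 18 alternatives, among them any 1 library left out), both named after their values were seen. The kinase genes Mtor (log2 difference -0.20) and Prkaa2 (0.13) did not pass the test.

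Of 18 further genes of autophagosome formation and fusion, 5 fell and none rose (0 higher at an unadjusted p under 0.05, and 7 lower). Rab7, the GTPase of late endosomes that guides fusion with the lysosome, was at 90.7, 89.1 and 96.1 FPKM in controls and at 71.4, 77.6 and 70.4 FPKM in the other group, 1.26-fold lower (adjusted p = 0.0124 by limma). Tmem41b, a lipid scramblase of the endoplasmic reticulum, was at 8.55, 7.89 and 8.82 FPKM in controls and at 5.37, 5.60 and 6.87 in the other group. It fell 1.42-fold, a call lost without control replicate 1 or 3 or knockout-labelled replicate 1 (adjusted p 0.0593 to 0.0695). The fusion SNARE gene Ykt6 was at 30.0, 28.7 and 31.0 FPKM in controls and at 24.8, 25.2 and 24.8 in the other group. It fell 1.2-fold, a call lost under 4 of the 18 alternatives, at an adjusted p of up to 0.0899. Rubcn, an inhibitor of the UVRAG complex, and Sh3glb1, which binds UVRAG, were 1.21-fold and 1.2-fold lower, were named after their values were seen, and lost their calls in 11 and 9 of 18 alternatives.

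Of 16 further receptors and adaptors of selective autophagy, 2 fell and 1 rose (1 higher at an unadjusted p under 0.05, and 5 lower). Retreg1, also called FAM134B, a receptor for autophagy of the endoplasmic reticulum, was at 3.33, 3.01 and 3.81 FPKM in controls and at 9, 11.5 and 8.30 FPKM in the knockout-labelled libraries. Each library of the second group was over 2 times any control, and Retreg1 rose 2.84-fold (log2 difference 1.27, SE 0.13, adjusted p = 0.00139 by limma). The microRNA gene Mir7212 overlaps it. Tollip, an adaptor that binds ubiquitin and ATG8, was at 37.3, 38.5 and 34.4 FPKM in controls and at 21.1, 24.6 and 21.6 in the other group, 1.64-fold lower (adjusted p = 0.00203 by limma). Tbk1, the kinase that phosphorylates optineurin and SQSTM1, was at 11.5, 11.8 and 10.9 FPKM in controls and at 9.40, 9.34 and 9.17 in the other group. It fell 1.23-fold, a call lost under 4 of the 18 alternatives, at an adjusted p of up to 0.101. The mitophagy gene Pink1 had a log2 difference of -0.05 and did not pass the test.

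Of 11 further transcriptional regulators, 3 fell and 2 rose (3 higher at an unadjusted p under 0.05, and 3 lower). Zkscan3, a zinc-finger factor described as a repressor of autophagy genes, was at 10.8, 11.3 and 10.4 FPKM in controls and at 21.3, 16.1 and 18.9 FPKM in the knockout-labelled libraries, and rose 1.74-fold (adjusted p = 0.00418 by limma). The microRNA gene Mir6942 overlaps it. Folliculin, encoded by Flcn, works with FNIP1 on the Rag GTPases that hold TFEB and TFE3 in the cytoplasm. Flcn was at 23.8, 28.7 and 20.8 FPKM in controls and at 14.6, 16.0 and 11.1 in the other group, 1.76-fold lower (adjusted p = 0.0165 by limma). The call was lost without control replicate 1 or 2 (adjusted p = 0.0521 and 0.0523).

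Fnip1 and Rragd, named after their values were seen, fell 1.5-fold and 1.30-fold. The Rag gene Rragb was at 27.4, 26.7 and 28.4 FPKM in controls and at 32.0, 35.2 and 34.0 in the knockout-labelled libraries, and rose 1.23-fold. The calls of Fnip1, Rragd and Rragb were lost in 4, 5 and 3 of 18 alternatives, with adjusted p up to 0.0659, 0.0742 and 0.0617. The forkhead genes Foxo1 and Foxo3 had log2 differences of 0.05 and 0.08 and did not pass the test.

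**Figure D4:**
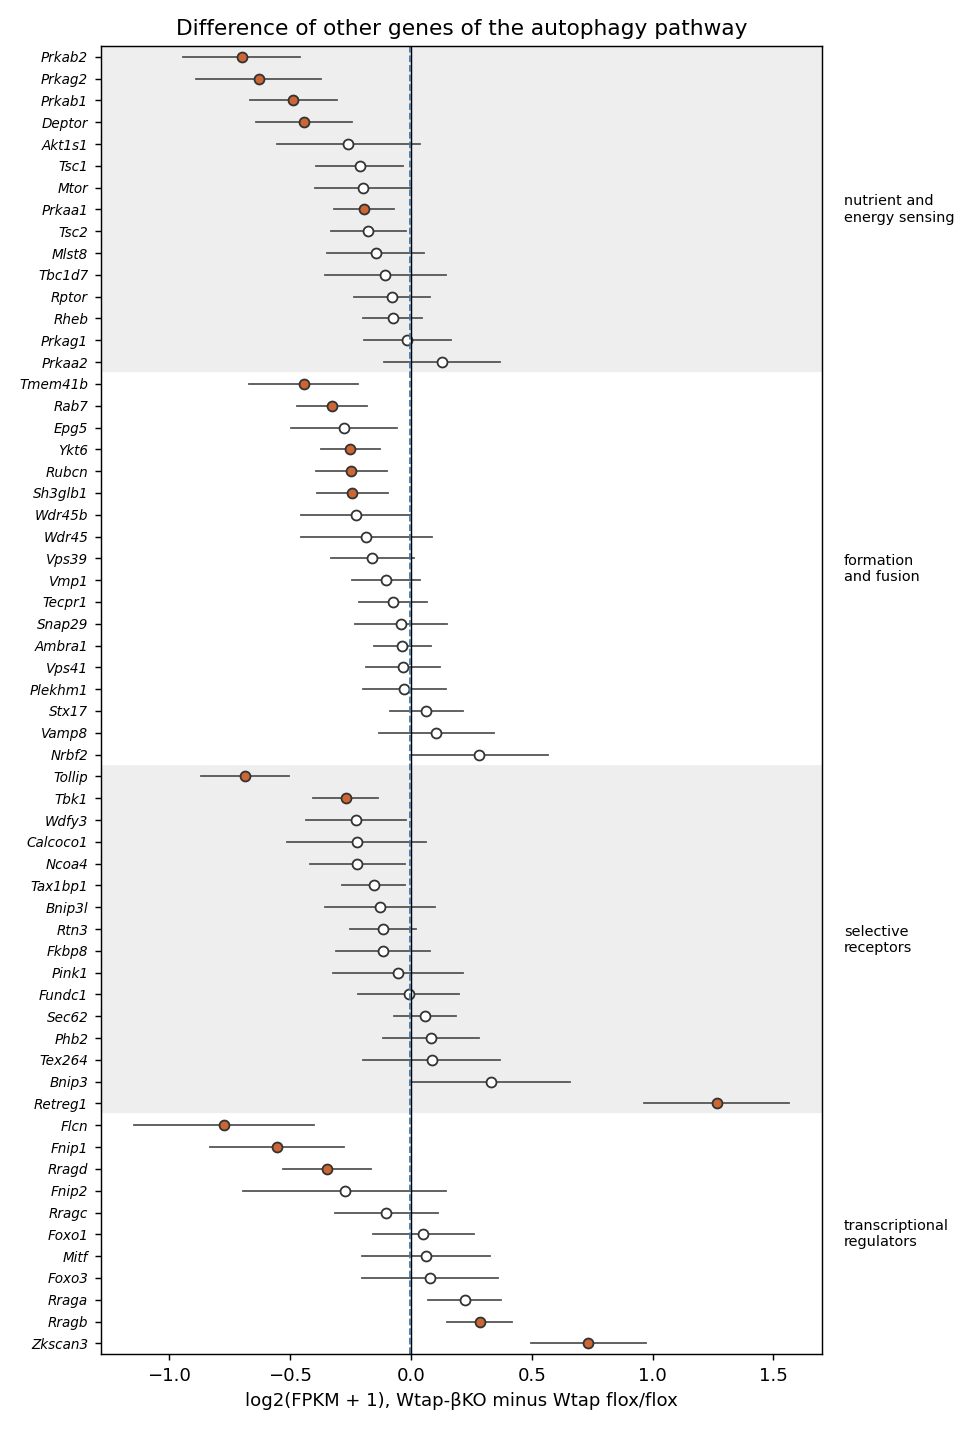
Log2 difference of 60 other genes of the autophagy pathway, Wtap-βKO minus Wtap flox/flox on the log2(FPKM + 1) scale (x axis), with its 95% confidence interval from limma (bars), in 4 lists; filled points passed the test and the dashed line is the median of all tested genes. Retreg1 and Zkscan3 stand highest, and Flcn, Prkab2 and Tollip lowest.

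The scaling between libraries bears on differences of this size. The deposited FPKM already carried a scaling, since the library sizes that 1 read stands for were 0.952 to 0.988 of the recovered reads in controls and 1.04 to 1.07 in the knockout-labelled libraries. When the values were scaled to total recovered reads, the median of all tested genes moved to 0.08 and that of the autophagy genes to -0.03, and 24 of the 38 autophagy genes were below 0, where 37.3% of all genes were. Without the 50 highest genes the medians were 0.03 and -0.10, and under quantile normalization 0.00 and -0.12. Sqstm1, Optn, Atg13 and Wipi1 were called lower under each of these 3 scalings, Rb1cc1 only under quantile normalization, and Atg101 was called higher under all 3.

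**Figure D5:**
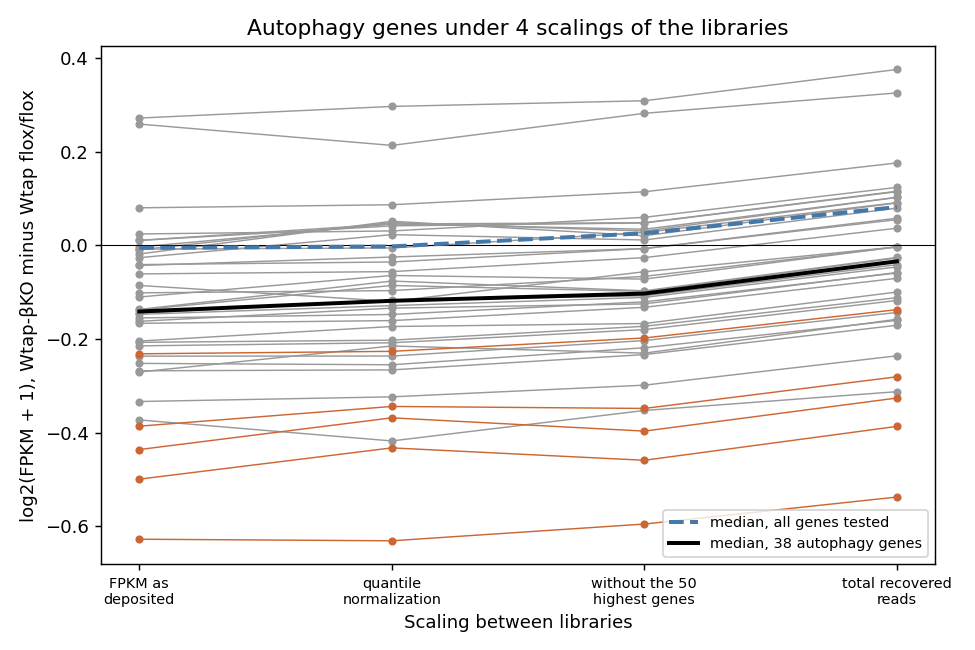
Log2 difference (y axis, Wtap-βKO minus Wtap flox/flox) of the 38 tested autophagy genes (thin lines; coloured, the 5 that passed the test with FPKM as deposited) under 4 scalings of the libraries (x axis). The median of the autophagy genes (solid) runs below that of all tested genes (dashed) under each scaling, and both lie highest when values are scaled to total recovered reads, at -0.03 and 0.08.

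The autophagy genes were spread over the genome, with 6 of the 40 on chromosome 11: Sqstm1, Gabarap, Nbr1, Becn1, Wipi1 and Ulk2. Deposited coordinates of 39 of the 40 matched GENCODE M21. Another annotated gene overlapped the span of 21 of the 40, and whether the pairs share exon bases was not examined. The library protocol does not mark strand, so reads of shared bases cannot be assigned by strand to partners on opposite strands. All partners of Atg5, Atg7 and Atg16l1 lie on the same strand, where marking strand would not separate them. Besides those named above, the overlapped genes are Atg4b, Atg4d, Gabarapl1, Map1lc3b, Becn1, Pik3r4, Uvrag, Atg14, Atg2b, Atg9a, Atg9b, Atg4a-ps, Atg5, Atg10, Atg16l2, Atg16l1 and Atg7.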

How the data were processed

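The deposited values are FPKM, 1 column per sample, and gene lengths in bases, per the file headers. The submitters' processing notes list GRCm38 and mm10 as builds, and as tools DESeq2 1.20.0, featureCounts 1.5.0-p3, CASAVA and HISAT2 2.0.5. Their roles and annotation are not given in the sources used here. FPKM times length came to whole multiples of 1 read (within 0.01 read) for 100.0% of values above 0, which gave the recovered reads. FPKM as deposited entered limma 3.58.1 in R 4.3.3 (lmFit, eBayes with a variance trend) as log2(FPKM + 1), which understates changes of low genes; folds are ratios of mean FPKM. The fit was tested on simulated data with independent noise and changes larger than those of the autophagy genes. That test does not show how well changes as small as theirs are found. Within-group pairs differed by more than sampling noise. The labels call the samples independent biological replicates.

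The autophagy genes and lists were chosen with earlier results of these data known. Library values are given for every autophagy gene called, for Ulk1, Becn1, Atg5, Atg7, Atg16l1, Map1lc3a, Map1lc3b, Gabarapl1, Sqstm1 and Tfeb, and of each other list for up to 3 called genes with the smallest adjusted p; library values of any other gene were chosen after they were seen. Alternatives were other scalings, pseudocounts of 0.1 and 0.5, other filters, no or a robust trend, voom on recovered reads, protein-coding genes alone, a replicate block, and each sample left out in turn. 1 gene of the other pathway lists is not reported here and is left out of their counts. A planned comparison of ATG8 proteins was not made. Python 3.11.15, pandas 2.3.3, SciPy 1.17.1 and matplotlib 3.10.9 were used, with promoters from RefSeq (GRCm38.p6).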

Additional observations from a re-analysis of the deposited data

How the results depend on the processing

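Sqstm1, Atg13 and Wipi1 were called lower in all 18 alternatives and Optn in all 17 that tested it. Autophagy genes called lower numbered 5, against 10 by voom and 8 with protein-coding genes alone (4 to 6 without 1 library). Of all genes, voom called 14.1% lower, and with protein-coding genes alone 1912 of 12715 were. At a mean FPKM of at least 5, 6 of 31 autophagy genes were called lower, against 1571 of all 7830 genes. With 0 called higher, 1 was called, Atg101, under quantile normalization, without the 50 highest genes, under total-read scaling, at a mean FPKM of at least 5, under the replicate block, with protein-coding genes alone and without knockout-labelled replicate 3 (0 to 1 over single libraries left out). The median of the autophagy genes minus that of all genes was -0.17 to -0.09 over the alternatives (log2), and was smallest in size at a mean FPKM of at least 5. Total-read scaling called 2334 of all genes higher and 1094 lower (1397 and 1798 as deposited), and 9 of the other pathway genes lower (15 as deposited). Leaving out 1 library gave 774 to 1379 higher and 1020 to 1834 lower of all genes, and 7 to 17 lower of the other pathway genes.

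Among 11 genes that did not pass the test the sign changed in some alternatives. Log2 differences under quantile normalization were Ulk1 0.023, Map1lc3a 0.052, Gabarapl1 0.049 and Atg3 0.046. Without the 50 highest genes they were Ulk1 0.011, Map1lc3a 0.021, Pik3r4 0.028, Gabarapl1 0.031 and Atg3 0.034, and under total-read scaling Atg2a 0.037, Pik3c3 0.058, Atg16l1 0.055, Ulk1 0.080, Map1lc3a 0.091, Pik3r4 0.091, Gabarapl1 0.10 and Atg3 0.10. With 1 library left out they ran Pik3c3 -0.086 to 0.0059, Atg16l1 -0.10 to 0.020, Atg4b -0.020 to 0.093, Ulk1 -0.10 to 0.055, Ulk2 -0.030 to 0.037, Map1lc3a -0.10 to 0.078, Pik3r4 -0.049 to 0.016, Atg12 -0.054 to 0.086, Gabarapl1 -0.16 to 0.085 and Atg3 -0.050 to 0.034. The cause of these changes was not tested.

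Same-numbered samples of the 2 groups were not shown to be paired: their deviations correlated at 0.018 to 0.038, although each sample correlated best with its own number. The replicate block called 1148 genes higher and 1490 lower, and 1 autophagy gene higher and 5 lower; Rb1cc1 lost its call (adjusted p = 0.0793) and Gabarap gained one (0.0412). Counting error is larger for genes with few reads, such as Tfeb with 102 to 177 reads per library.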
